A study of Rattus norvegicus with 167 samples.

Results

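At the lesion site of the rat spinal cord, 60 days after a complete transection, 6 arrays compared treatment with neurotrophin-3 in a chitosan tube (NT3) with a lesion left without a tube (LC). They were chosen by their sample titles, which give the middle segment, the treatment and the day, and they form 2 of the 56 groups of the series, with 3 NT3 and 3 LC arrays among 39 of the lesion site. All animals of both groups were adult female Wistar rats, in which a 5 mm piece of the thoracic cord was removed. In the NT3 group a 5 mm chitosan tube carrying NT-3 was placed in the gap, and in the LC group (lesion control) nothing was placed there. The tissue was the 5 mm of cord at the lesion, and each library was made from 1 ug of total RNA. The wider series followed the lesion site and its neighbouring segments from day 1 to day 90, together with uninjured cord. No day 60 lesion-site arrays with an empty tube were analysed here, so the tube and the NT-3 it carried cannot be told apart in this comparison.

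Neurotrophin-3 is a secreted growth factor of the neurotrophin family. It signals mainly through the receptor tyrosine kinase TrkC, the product of Ntrk3, and also binds the low-affinity receptor p75, the product of Ngfr. It supports proprioceptive sensory neurons and corticospinal axons. A transected cord fills with macrophages, lymphocytes, fibroblasts and matrix, is bordered by reactive astrocytes, and can be entered by Schwann cells and sensory axons from the dorsal roots.

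The values are log2 intensities, in which a difference of 1 is a doubling, for 12041 genes above a low-intensity filter. The 3 NT3 arrays correlated with each other at 0.972 to 0.988 across genes, the 3 LC arrays at 0.979 to 0.987, and arrays of different treatment at 0.934 to 0.966. Array medians over the whole series ran from 7.10 to 7.25. The 3' minus 5' signal of beta-actin, a sign of RNA integrity, ran from 1.25 to 1.70 in NT3 and from 1.40 to 1.59 in LC. The tissue carried the markers of injured cord. The mean level of the reactive astrocyte list was 10.0 to 10.2 in NT3 and 10.3 to 10.7 in LC against 7.8 to 7.9 in uninjured cord. That of the neuron list was 8.71 to 9.66 in NT3 and 7.21 to 8.93 in LC against 11.64 to 11.76. The general astrocyte list was also lower than in uninjured cord in both groups. The astrocyte filament gene Gfap read 13.70, 13.46 and 13.79 in NT3 and 13.43, 13.62 and 12.92 in LC. Levels are of bulk tissue, so fewer cells of a type and less RNA per cell cannot be told apart. The labels do not say that the 3 arrays of a group came from separate animals, so p-values rest on spread between samples. In the main fit that spread was pooled over all lesion-site groups and uninjured cord, not taken from the compared arrays alone.

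At day 60 the NT3 lesion site held less RNA of lymphocytes, antigen presentation, complement, chemokines and scar matrix than the untreated lesion. On average it held more RNA of skeletal muscle, sensory neurons and neurons. The list means of these increases overlapped between arrays of the groups, and few or none of their members were called without LC array 3. Of the 12041 genes, 3099 (25.7%) passed an adjusted p of 0.05 in limma: 1255 (10.4%) were higher in NT3 and 1844 (15.3%) lower. Without any overlap between the groups, all 3 NT3 arrays lay above all 3 LC arrays in 2095 genes (17.4%) and below them in 3456 genes (28.7%). Changes of at least 2-fold ran the other way, with 258 genes higher (2.14%) and 149 lower (1.24%). The median difference over all tested genes was -0.05. The total fell to 1359 genes, 426 higher and 933 lower, without LC array 3 and to 1832 without NT3 array 2.

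The genes that fell most were those of antibody-producing cells, chemokines, and enzymes of matrix and arginine breakdown. Ighl2, annotated as an immunoglobulin heavy chain gene, read 6.45, 8.50 and 6.23 in the NT3 arrays and 11.01, 10.60 and 11.70 in the LC arrays, against a mean of 5.56 in uninjured cord. That is 16.5-fold less (log2 difference -4.05, SE 0.92, adjusted p = 0.00239), with the second NT3 array above the other two and all 3 below LC. The ubiquitin-like modifier gene Ubd, which is induced by inflammatory cytokines, read 6.84, 6.16 and 6.15 in NT3 and 9.77, 9.70 and 10.64 in LC (-3.65, SE 0.56, adjusted p = 2.85e-05). Its NT3 levels lay close to the uninjured mean of 5.91. Mmp3 (stromelysin-1, a secreted protease of the extracellular matrix) read 7.82, 6.42 and 6.95 in NT3 and 9.97, 11.29 and 10.85 in LC, 12.5-fold less (-3.64, SE 0.56, adjusted p = 2.69e-05). Cxcl13, the chemokine that draws B cells, read 8.95, 8.44 and 8.93 in NT3 and 11.76, 11.67 and 12.35 in LC, 8.90-fold less (-3.15, SE 0.47, adjusted p = 1.91e-05). Both Mmp3 and Cxcl13 stayed above their uninjured means of 4.78 and 5.77 in every NT3 array. Ccl9, a chemokine for myeloid cells, read 7.47, 6.12 and 6.39 in NT3 and 9.62, 9.63 and 9.85 in LC (-3.04, SE 0.43, adjusted p = 7.82e-06). Arg1 (arginase 1, which splits arginine and is used as a marker of one macrophage state) read 6.45, 6.23 and 5.74 in NT3 and 8.53, 8.85 and 9.67 in LC, 7.37-fold less (-2.88, SE 0.30, adjusted p = 1.08e-07). Here the uninjured mean, 7.72, lay between the groups. The ribonuclease gene Rnase1l2 read 4.72, 4.82 and 5.08 in NT3 and 7.92, 6.16 and 8.98 in LC (-2.81, SE 0.41, adjusted p = 1.57e-05), with LC array 2 nearest to NT3.

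**Figure D1:**
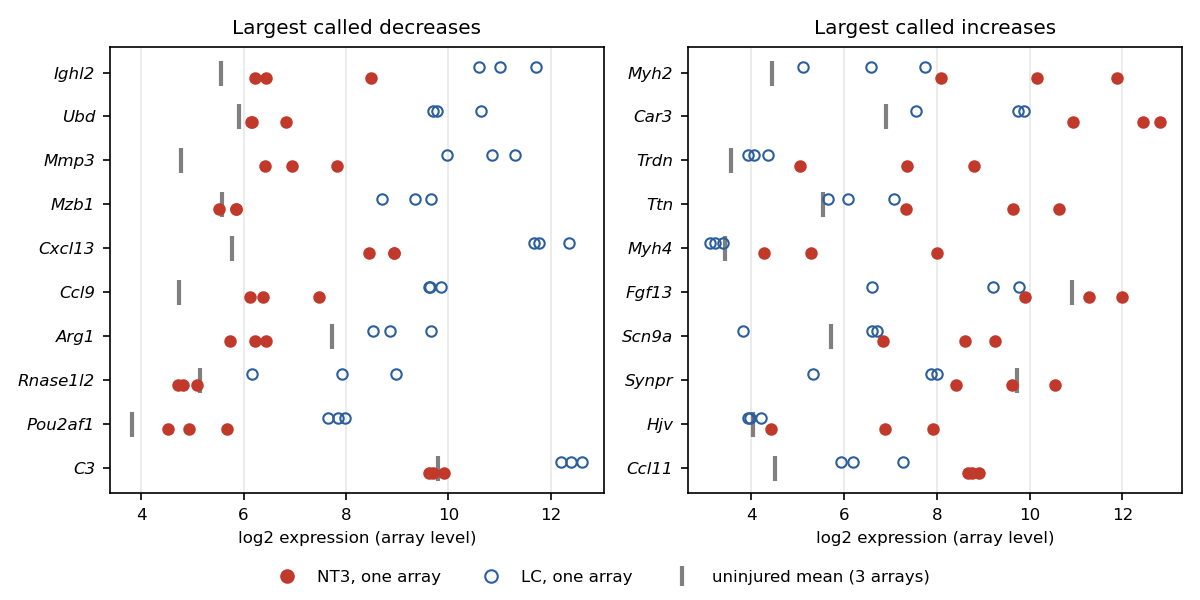
Log2 intensity of the 10 called genes with the largest decrease and the 10 with the largest increase, by array at the lesion site on day 60 (filled red, NT3; open blue, LC; grey tick, mean of uninjured cord). Every gene shown was chosen for groups that do not overlap; the genes that fell show a clear gap, narrowest in Rnase1l2, while in Fgf13, Scn9a, Hjv and Ttn the nearest NT3 and LC arrays almost meet.

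Genes of B and plasma cells were nearer to their uninjured level in NT3 than in LC. Of the 7 list members tested, 5 fell, none rose, and 6 had all NT3 arrays below all LC arrays; the median difference was -1.57. The mean of the list was 7.11, 7.49 and 7.08 in the NT3 arrays, 9.03, 9.07 and 8.73 in LC and 6.13 to 6.35 in uninjured cord. Mzb1, a chaperone of antibody assembly in marginal-zone B cells and plasma cells, read 5.86, 5.85 and 5.51 in NT3 and 9.35, 9.67 and 8.71 in LC (-3.50, SE 0.69, adjusted p = 0.000635). The NT3 values of Mzb1 lay around the uninjured mean of 5.57. Pou2af1, a B cell transcriptional coactivator, read 4.52, 5.68 and 4.93 in NT3 and 7.85, 7.98 and 7.65 in LC (-2.78, SE 0.65, adjusted p = 0.00274). Jchain, which joins secreted IgM and IgA, read 8.58, 9.26 and 8.10 in NT3 and 11.25, 11.39 and 10.99 in LC (-2.56, SE 0.43, adjusted p = 8.89e-05), with a second probe set at -1.68. The B cell surface genes Ms4a1 (CD20) and Cd79b fell less, by 1.57 (adjusted p = 0.00153) and 1.48 (adjusted p = 0.00155). All 5 were called with any 1 of the 6 arrays left out.

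T cell genes were lower as well. Of 16 tested members, 7 fell, none rose and 8 lay below LC in every array, with a median difference of -0.43. The 3 CD3 chains, the signalling part of the T cell receptor, moved together. Cd3g read 7.10, 6.73 and 7.04 in NT3 and 8.84, 8.68 and 8.59 in LC, 3.36-fold less (-1.75, SE 0.24, adjusted p = 7.82e-06). Cd3d (-1.63) and Cd3e (-1.50) fell by similar amounts, as did Cd5 (-1.59), a surface receptor that tempers T cell receptor signalling. In all 4 genes the NT3 arrays lay above the uninjured mean, which was 5.63 for Cd3g and 6.42 for Cd3e.

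Antigen presentation genes fell across the class II pathway, in which myeloid and B cells show peptides to helper T cells. Of 16 tested members 12 fell, none rose and 14 lay below LC in every array; the median difference was -0.82. The list mean was 9.82, 9.79 and 9.84 in the NT3 arrays and 10.38, 10.57 and 10.71 in LC, against 7.90 to 8.09 in uninjured cord, so both groups stayed above normal tissue. The 9 class II members, among them the costimulatory ligand gene Cd86, had no overlap between the groups and 7 of them fell (median -1.003). Of 7 class I members 5 fell (median -0.43), among them the immunoproteasome subunits Psmb8 (-0.85) and Psmb9 (-0.84). Without LC array 3, 9 of the 16 were called.

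Since the class II genes moved together, their promoters are shown for a shared element. Class II promoters are known for a conserved set of boxes that ends in the Y box, an inverted CCAAT box bound by NF-Y. The Y-box sequence searched, TGATTGG on either strand, stands within 250 bases before the gene start in 2149 of the 33469 rat promoters in the RefSeq table (6.42%), built on GRCr8. Of the 9 class II members tested, 7 matched that table and 5 of them hold it: RT1-Ba, RT1-Bb, RT1-DMa, RT1-Da and RT1-Db1. Cd74 and Cd86 do not hold these letters in this window. Cd86 is counted with this list but is not itself a class II gene. The following 97-base windows, each written 5′ to 3′ on its gene's strand with the match in capitals, come from 4 of the 5: RT1-Db1, RT1-Ba and RT1-DMa, which fell, and RT1-Da, which did not pass the test.
RT1-Db1, chr20:4560208-4560304, minus strand, match starting 82 bases before the gene start: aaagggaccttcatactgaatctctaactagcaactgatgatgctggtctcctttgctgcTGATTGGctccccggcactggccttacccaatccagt
RT1-Ba, chr20:4576952-4577048, plus strand, match starting 45 bases before: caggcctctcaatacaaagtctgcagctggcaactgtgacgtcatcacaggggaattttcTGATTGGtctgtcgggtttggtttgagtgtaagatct
RT1-DMa, chr20:4712365-4712461, minus strand, match starting 66 bases before: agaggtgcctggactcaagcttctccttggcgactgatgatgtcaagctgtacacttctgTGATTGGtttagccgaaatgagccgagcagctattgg
RT1-Da, chr20:4515304-4515400, plus strand, match starting 51 bases before: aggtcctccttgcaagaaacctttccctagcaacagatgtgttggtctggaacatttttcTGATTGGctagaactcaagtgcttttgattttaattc
A match is a description of the letters only; binding was not measured.

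Among these genes, RT1-Db1, the beta chain of a classical class II molecule, read 11.06, 11.14 and 11.02 in NT3 and 12.03, 12.42 and 12.51 in LC, 2.37-fold less (-1.24, adjusted p = 0.000444). RT1-Ba, an alpha chain of the second classical molecule, read 11.55, 11.51 and 11.35 in NT3 and 12.30, 12.45 and 12.67 in LC (-1.01, adjusted p = 0.0027). Other RT1-Ba probe sets differed by -0.93, -0.08 and -0.002, and the mean of all of them by -0.50 (adjusted p = 0.012). RT1-DMa and RT1-DMb form the molecule that loads peptide onto class II. RT1-DMa read 9.25, 9.19 and 9.14 in NT3 and 10.08, 10.27 and 10.64 in LC (-1.13, SE 0.16, adjusted p = 4.8e-06), and RT1-DMb fell by 1.00 (adjusted p = 1.76e-06). The invariant chain gene Cd74, whose product guides class II molecules through the cell, read 12.78, 12.81 and 12.62 in NT3 and 13.57, 13.55 and 13.88 in LC (-0.93, adjusted p = 0.00031). RT1-Da, the alpha chain paired with RT1-Db1, had a difference of -0.52 that missed the threshold (adjusted p = 0.0506), and RT1-Bb, the partner of RT1-Ba, one of -1.31 with wider spread (adjusted p = 0.131). Both promoters hold the motif, and for both genes every NT3 array lay below every LC array. Class I and class II genes of the RT1 complex are similar in sequence and differ between rat strains, so their probe sets can read a relative or an allele in part. B2m, the light chain of class I, differed by -0.05.

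**Figure D2:**
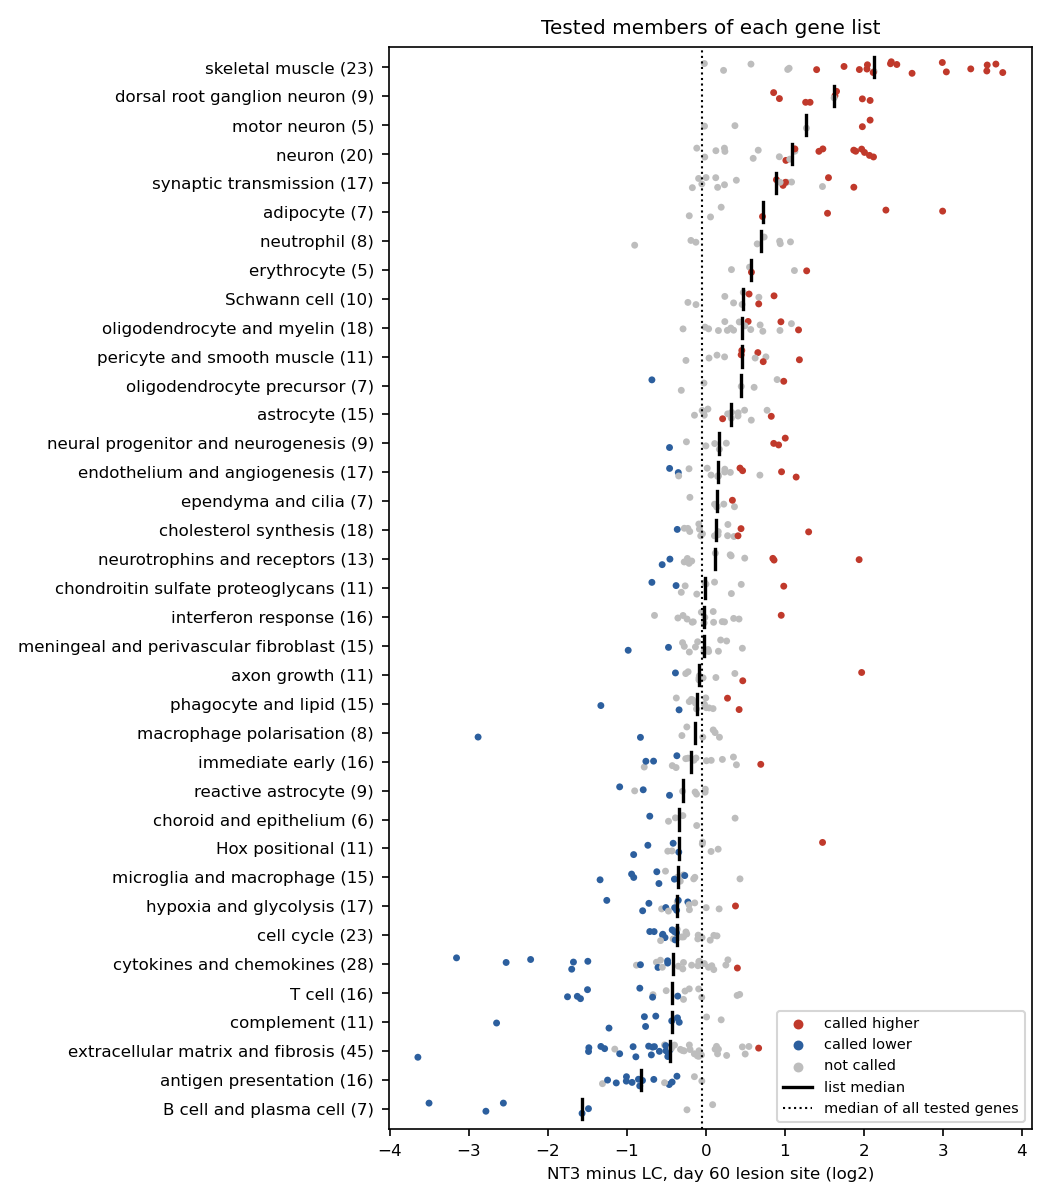
Log2 difference NT3 minus LC at the lesion site on day 60 for each tested member of each gene list, coloured by call, with a black bar at the list median and a dotted line at the median of all tested genes. The B and plasma cell and antigen presentation lists lie left of the line with few exceptions, and the skeletal muscle, dorsal root ganglion and neuron lists lie right of it.

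Complement genes were lower in NT3 too. Of 11 complement members tested 8 fell, none rose and 9 lay below LC in every array (median -0.43). C3, the component on which the complement pathways converge, read 9.63, 9.91 and 9.70 in NT3 and 12.19, 12.39 and 12.60 in LC, 6.26-fold less (-2.65, SE 0.38, adjusted p = 1.38e-05). Its NT3 arrays stood around the uninjured mean of 9.80. C5ar1, the receptor for the complement fragment C5a on myeloid cells, read 8.09, 8.17 and 8.17 in NT3 and 9.22, 9.33 and 9.56 in LC (-1.22, SE 0.14, adjusted p = 2.98e-07). The regulator Cfi (complement factor I) fell by 0.78 (adjusted p = 0.0183), and C1qc, a chain of the recognition molecule C1q, by 0.76 (adjusted p = 0.00377). Lbp, which binds bacterial lipopolysaccharide and was named after its values were seen, read 10.47, 10.86 and 10.78 in NT3 and 12.67, 13.18 and 13.00 in LC, 4.74-fold less (-2.25, adjusted p = 1.41e-10). Cfi lost its call without LC array 2 or LC array 3, its difference over the left-out fits running from -1.04 to -0.53 (adjusted p up to 0.124). Of the 8 complement calls, 3 were left without LC array 3, 5 without LC array 2 and 5 without NT3 array 1.

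Chemokines and myeloid receptors fell in part. Of 28 cytokine and chemokine genes tested, 10 fell and 1 rose (median -0.41), and leaving out an array left 9 or 10 of the decreases. Besides Cxcl13 and Ccl9, Ccl20, the ligand of CCR6 on lymphocytes and dendritic cells, read 5.95, 5.96 and 6.91 in NT3 and 7.97, 9.49 and 8.94 in LC (-2.53, SE 0.45, adjusted p = 0.000196). The monocyte chemokine Ccl2 read 9.51, 9.25 and 9.25 in NT3 and 10.89, 11.09 and 11.11 in LC, 3.24-fold less (-1.70, SE 0.19, adjusted p = 3.28e-07). Ccl7 (-2.22) and Ccl3 (-1.49), also monocyte attractants, and Spp1 (osteopontin, -1.67) were called too. Cxcl12, a chemokine made by stromal cells, was the member that rose, from 12.26, 12.14 and 12.26 in LC to 12.64, 12.62 and 12.61 in NT3 (0.40, adjusted p = 0.0325). Its call was lost when any 1 of the 6 arrays was left out, at 0.36 to 0.42 (adjusted p up to 0.093). The inflammatory cytokines Il1b (-0.29, adjusted p = 0.474) and Tnf (-0.08, adjusted p = 0.625) were not called, but a second Tnf probe set differed by -0.79 (SE 0.18), and Tnf was called with the mean of its probe sets (-0.44, adjusted p = 0.00294). Ccl11 (eotaxin, the eosinophil chemokine), which is outside this list and among the 10 largest increases without overlap between the groups, read 8.77, 8.66 and 8.90 in NT3 and 6.18, 5.93 and 7.26 in LC, 4.99-fold more (2.32, SE 0.34, adjusted p = 1.62e-05).

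Of 15 microglia and macrophage genes tested, 7 fell, none rose and 10 lay below LC in every array (median -0.35), but 3 of the 7 calls were left without LC array 3. Cd14, the co-receptor for bacterial lipopolysaccharide, read 9.60, 9.65 and 9.73 in NT3 and 10.67, 11.04 and 11.28 in LC (-1.34, SE 0.17, adjusted p = 1.76e-06). The integrin chain Itgam (CD11b) read 7.49, 7.54 and 7.59 in NT3 and 8.25, 8.49 and 8.69 in LC (-0.94, SE 0.16, adjusted p = 0.000115). Tyrobp, the adaptor of several myeloid receptors, fell by 0.91. The commonly used markers Aif1 (-0.35, adjusted p = 0.234) and Cd68 (-0.35, adjusted p = 0.0718) did not pass. Among 15 genes of phagocytosis and lipid handling, 2 fell and 2 rose, near the 25.7% of all genes called. The cholesterol exporter Abca1 was higher by 0.42 and the macrophage elastase Mmp12 fell by 1.33. Without LC array 3, neither Abca1 (0.37, adjusted p = 0.069) nor Tyrobp (-0.88, adjusted p = 0.0568) was called.

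Matrix genes of the scar were lower in NT3, at levels far above uninjured cord in both groups. Of 45 tested members 22 fell, 1 rose, and 31 lay below LC in every array (median -0.46); 17 of the decreases were left without LC array 3. The list mean was 10.70, 10.78 and 10.73 in the NT3 arrays, 11.16, 11.26 and 11.19 in LC and 7.58 to 7.68 in uninjured cord. Col8a1, a short-chain collagen of vessels and remodelling tissue, read 9.11, 9.23 and 8.95 in NT3 and 10.48, 10.83 and 10.42 in LC (-1.48, SE 0.20, adjusted p = 4.8e-06). Loxl2, which cross-links collagen, read 6.65, 7.80 and 6.80 in NT3 and 8.47, 8.27 and 8.96 in LC (-1.48, SE 0.27, adjusted p = 0.000313). Periostin (Postn), a matrix protein of fibrotic tissue, read 10.90, 11.04 and 11.61 in NT3 and 12.45, 12.11 and 12.83 in LC (-1.28, SE 0.20, adjusted p = 2.92e-05). Timp1, an inhibitor of matrix metalloproteases, read 11.82, 11.62 and 11.66 in NT3 and 12.65, 12.91 and 12.81 in LC (-1.09, SE 0.16, adjusted p = 1.39e-05). The main fibrillar collagen gene Col1a1 moved less: 12.30, 12.75 and 12.37 in NT3 against 12.88, 13.17 and 12.79 in LC (-0.47, adjusted p = 0.00492). Col14a1, a fibril-associated collagen, was the 1 member that rose (0.67, adjusted p = 0.00897). The fibroblast markers Dcn (0.16) and Lum (0.27) did not pass. Of 11 chondroitin sulfate proteoglycan genes, whose products restrain axon growth, 2 fell and 1 rose, near the 25.7% of all genes called. Versican (Vcan) fell by 0.68, and Ptprz1 was higher by 0.99. Other Vcan probe sets differed by -1.39, -1.44, -1.03 and -0.44. Without LC array 3, Col14a1 (0.57, adjusted p = 0.0643) and Ptprz1 (0.72, adjusted p = 0.0939) were not called.

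**Figure D3:**
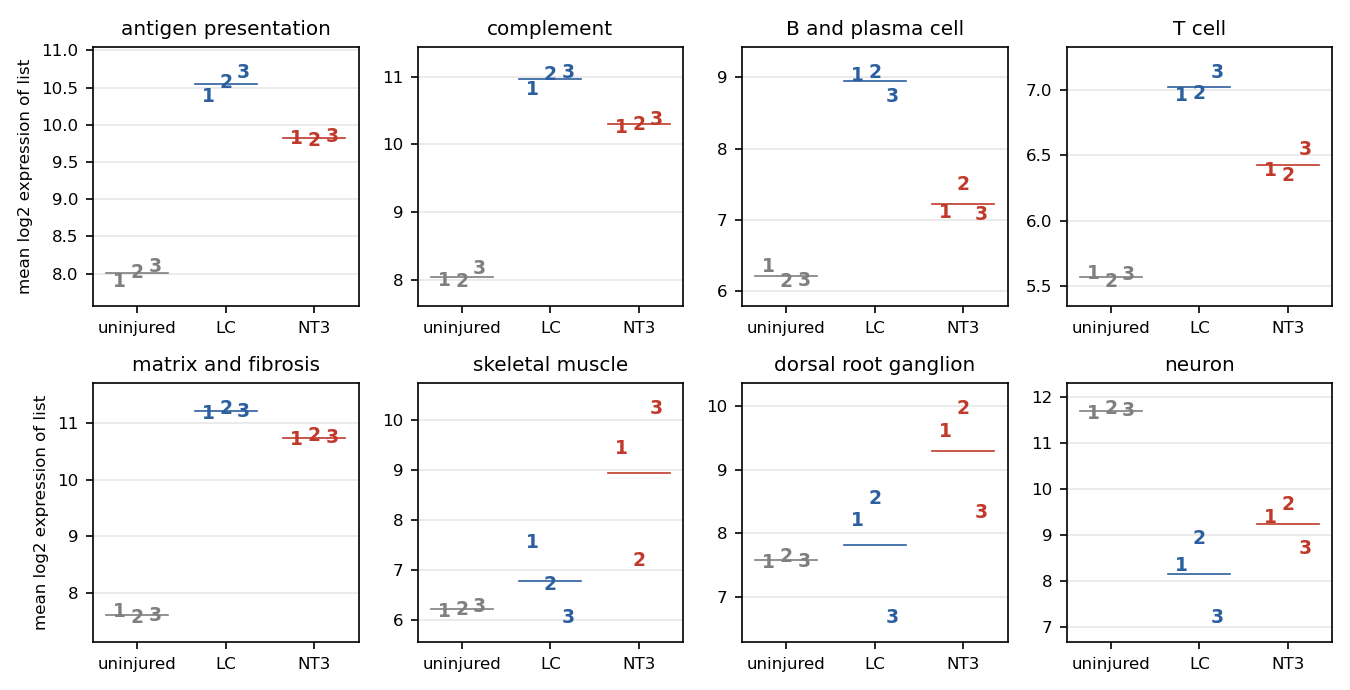
Mean log2 intensity of 8 gene lists in each array (numerals are replicate numbers, lines are group means) for uninjured cord, LC and NT3 at the lesion site on day 60. The immune and matrix lists separate NT3 from LC with little spread, whereas the muscle, ganglion and neuron lists spread widely within a group, with LC array 3 lowest.

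Among the genes without overlap between the groups, those that rose most belonged mainly to skeletal muscle and to neurons, and they varied strongly between the arrays of a group. Myh2, the fast IIA myosin heavy chain of muscle fibres, read 10.16, 8.08 and 11.89 in NT3 and 7.74, 6.59 and 5.11 in LC (3.56, SE 1.17, adjusted p = 0.0258). The muscle and fat carbonic anhydrase Car3 read 12.43, 10.94 and 12.80 in NT3 and 9.89, 9.74 and 7.56 in LC (3.00, SE 0.50, adjusted p = 9.05e-05). Triadin (Trdn), of the calcium release complex of muscle, read 7.35, 5.05 and 8.81 in NT3 and 4.37, 4.05 and 3.93 in LC (2.95, SE 0.80, adjusted p = 0.00847). In these 3 genes NT3 array 2 was the lowest of its group and NT3 array 3 the highest, and LC array 3 was the lowest of all. Titin (Ttn), the spring protein of the sarcomere, read 9.65, 7.34 and 10.62 in NT3 and 7.07, 6.09 and 5.65 in LC (2.93, SE 0.83, adjusted p = 0.0109). Myh4, the fast IIB myosin heavy chain, read 7.99, 4.27 and 5.28 in NT3 and 3.22, 3.38 and 3.11 in LC (2.61, SE 0.78, adjusted p = 0.0155). Hjv (hemojuvelin, a bone morphogenetic protein co-receptor of muscle and liver) read 6.89, 4.42 and 7.92 in NT3 and 4.20, 3.93 and 3.97 in LC (2.38, SE 0.74, adjusted p = 0.0189).

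As a group, 17 of 23 skeletal muscle genes rose and none fell (median 2.13), yet in 4 of the 23 did every NT3 array exceed every LC array. The list mean was 9.42, 7.19 and 10.23 in NT3, 7.55, 6.71 and 6.06 in LC and 6.18 to 6.28 in uninjured cord, so NT3 array 2 lay below LC array 1. No member was called without NT3 array 1 or without LC array 3, 1 without NT3 array 3 and 5 without LC array 2, and 7 were called on the 6 arrays alone with the replicate block. Myh2 lost its call without NT3 array 1, NT3 array 3, LC array 2 or LC array 3 (2.64 to 4.54 over the 6 left-out fits), Trdn without NT3 array 3 (2.08, adjusted p = 0.0745), Ttn without NT3 array 3 or LC array 3 (2.23 to 3.87), Myh4 without NT3 array 1 or LC array 3 (1.54 to 3.40), and Hjv without either of these or NT3 array 3 (1.62 to 3.37). All 10 genes that fell most kept their call under all 22 alternatives tried, and of the 10 largest increases without overlap Car3 and Ccl11 did. The cord itself holds no skeletal muscle fibres, and the part of adjoining muscle in these values was not tested.

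Genes of dorsal root ganglion neurons, the sensory neurons whose axons enter the cord, were higher in NT3 on average. Of 9 tested members 8 rose and none fell (median 1.63). The list mean was 9.59, 9.97 and 8.32 in NT3 and 8.19, 8.55 and 6.68 in LC, against 7.54 to 7.63 in uninjured cord. NT3 array 3 thus lay below LC array 2, and LC array 3 was lowest of all; 2 of the 9 members separated the groups fully. The intermediate filament gene Prph, of peripheral neurons, was higher by 2.08 (adjusted p = 0.0311). Calca, the precursor of calcitonin gene-related peptide, was higher by 1.98 (adjusted p = 0.0429), and 2 other Calca probe sets differed by 1.28 and -0.03. Prph and Calca are also members of the motor neuron list. The heat and capsaicin receptor gene Trpv1 read 8.18, 8.46 and 7.17 in NT3 and 6.65, 6.73 and 5.46 in LC (1.66, SE 0.42, adjusted p = 0.00512). Without LC array 3 no member was called, and 1 was without NT3 array 1 and 1 without NT3 array 2. Over the left-out fits Prph ran from 1.07 to 2.73, Calca from 0.90 to 2.62 and Trpv1 from 1.25 to 2.04.

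Neuron genes showed the same array pattern. Of 20 tested members 10 rose and none fell (median 1.10), with 5 separating the groups fully. In every array of both groups the list mean stayed below uninjured cord: 9.38, 9.66 and 8.71 in NT3 and 8.33, 8.93 and 7.21 in LC against 11.64 to 11.76. Snap25, a fusion protein of synaptic vesicles, read 12.07, 12.55 and 11.19 in NT3 and 10.37, 11.22 and 8.60 in LC, overlapping between the groups (1.88, adjusted p = 0.0456). Slc17a6, the vesicular glutamate transporter 2, read 9.37, 9.95 and 8.60 in NT3 and 7.79, 8.51 and 6.97 in LC (1.55, SE 0.41, adjusted p = 0.00728). Fgf13, an intracellular regulator of sodium channels, read 11.29, 11.98 and 9.91 in NT3 and 9.21, 9.76 and 6.61 in LC (2.53, SE 0.81, adjusted p = 0.0227). Scn9a, the sodium channel Nav1.7 of pain-sensing neurons, read 8.60, 9.24 and 6.83 in NT3 and 6.60, 6.71 and 3.82 in LC (2.52, SE 0.76, adjusted p = 0.0168). The synaptic vesicle gene Synpr read 9.62, 10.54 and 8.41 in NT3 and 7.88, 8.01 and 5.32 in LC (2.46, SE 0.79, adjusted p = 0.0241). In all 5 genes NT3 array 2 was the highest and LC array 3 the lowest. The light neurofilament gene Nefl rose by 2.12 (adjusted p = 0.0293). Rbfox3 (NeuN, 0.67, adjusted p = 0.357), the GABA synthesis gene Gad1 (1.09, adjusted p = 0.109), the inhibitory vesicular transporter Slc32a1 (-0.09, adjusted p = 0.863) and the motor neuron marker Chat (0.37, adjusted p = 0.139) did not pass. Of the 10 calls, 1 was left without LC array 3, 3 without NT3 array 1 and 3 without NT3 array 2. None was left with the mean of the ganglion list as a covariate, an alternative chosen after seeing the data. The ganglion list was itself higher in NT3 on average, so that fit cannot tell its part from the treatment. Fgf13 (1.57 to 3.15 over the left-out fits), Scn9a (1.57 to 3.21), Synpr (1.58 to 3.012) and Nefl (1.09 to 2.79) each lost the call without NT3 array 1, NT3 array 2 or LC array 3, Snap25 (1.14 to 2.45) also without LC array 1, and Slc17a6 (1.16 to 1.93) without NT3 array 2 or LC array 3. Of 17 synaptic transmission genes 5 rose and none fell, and none was called without LC array 3.

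The vessel genes Emcn and Tek rose with little spread between arrays, while smooth muscle and fat genes rose with wider spread. Of 17 endothelial genes 4 rose and 2 fell, which as a group is not a shift in 1 direction (median 0.16). The endothelial sialomucin Emcn read 11.12, 10.70 and 11.04 in NT3 and 9.72, 9.93 and 9.78 in LC, 2.21-fold more (1.15, SE 0.15, adjusted p = 2.59e-06). Tek (Tie2, the angiopoietin receptor) read 9.80, 9.61 and 9.86 in NT3 and 8.93, 8.83 and 8.62 in LC (0.96, SE 0.16, adjusted p = 8.89e-05). Both exceeded the uninjured means of 8.67 and 8.53 in every NT3 array. Of 11 pericyte and smooth muscle genes 5 rose and none fell, led by the smooth muscle myosin Myh11 (1.19); 3 were called on the 6 arrays alone with the replicate block. Of 7 adipocyte genes 4 rose, and the adipose hormone Adipoq read 7.21, 6.50 and 8.59 in NT3 and 4.52, 5.97 and 4.97 in LC (2.28, SE 0.43, adjusted p = 0.000379). The adipocyte list shares Car3 with muscle, and 2 of its calls were left without NT3 array 3. Emcn, Tek and Adipoq were called with any 1 array left out.

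Glial lists had shares of called genes on both sides of the 25.7% of all genes. Of 18 oligodendrocyte and myelin genes 3 rose, none of them without NT3 array 3, and Mbp was not called (0.50, adjusted p = 0.0564). Of 10 Schwann cell genes 3 rose, none of them without LC array 3, NT3 array 1 or NT3 array 2. Of 15 astrocyte genes 2 rose, and Gfap was not called (0.33, adjusted p = 0.596). In the reactive astrocyte list 3 of 9 members fell: Timp1, the transcription factor gene Stat3 (-0.79, with a second probe set at -0.34) and the intermediate filament gene Nes (-0.46). Among 9 genes of neural progenitors 3 rose and 1 fell. Doublecortin (Dcx), a microtubule protein of migrating young neurons, read 6.30, 6.18 and 6.38 in NT3 and 5.29, 5.50 and 5.06 in LC (1.01, SE 0.20, adjusted p = 0.000627), below its uninjured mean of 7.44. A second Dcx probe set, under the intensity filter, differed by 0.197 (SE 0.129). The transcription factor genes Pax6 (0.92; adjusted p = 0.0578 on the 6 arrays alone with the replicate block) and Sox2 (0.86) were the others, with 3 further Sox2 probe sets at 0.13, 0.01 and -0.04; the member that fell was Nes. Over the left-out fits Sox2 (0.62 to 1.03) lost its call without LC array 3, Pax6 (0.62 to 1.10) without that array or any NT3 array, and Nes (-0.55 to -0.38) without any array but NT3 array 3.

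The neurotrophins and their receptors, the family of the agent itself, had 3 of 13 tested members higher and 2 lower, 5 calls set against 25.7% of all genes. Among the ligands, Ntf3 did not pass the intensity filter: it read 5.42, 5.28 and 5.60 in NT3 and 5.40, 6.04 and 5.76 in LC, overlapping between the groups. Ntf4, Gdnf, Lif and Fgf2 were also under the filter. Bdnf (-0.18, adjusted p = 0.528) and Cntf (0.32), the brain-derived and ciliary factors, did not pass, nor did Vegfa (-0.21). Insulin-like growth factor 1 (Igf1) fell, from 12.38, 12.69 and 12.44 in LC to 11.92, 12.04 and 11.90 in NT3 (-0.55, SE 0.11, adjusted p = 0.00061). Other Igf1 probe sets differed by -0.29 and -0.03, and the mean of all by -0.29 (adjusted p = 0.0416). Among the receptors, Ntrk3, which encodes the receptor of NT-3, read 6.88, 6.96 and 5.98 in NT3 and 6.60, 6.65 and 6.21 in LC (0.12, SE 0.24, adjusted p = 0.73). The BDNF receptor gene Ntrk2 lay higher in every NT3 array, 10.46, 10.14 and 10.58 against 9.98, 10.14 and 9.59, without passing (0.49, adjusted p = 0.239). Ngfr, the p75 receptor, read 8.55, 8.45 and 7.58 in NT3 and 7.53, 7.61 and 6.84 in LC (0.87, adjusted p = 0.0296). Ret, the signalling receptor for GDNF, read 10.32, 10.81 and 9.53 in NT3 and 8.76, 8.96 and 7.13 in LC (1.94, SE 0.59, adjusted p = 0.0172), with other probe sets at 1.41 and 0.77. Both lost the call without NT3 array 2 or LC array 3, Ngfr also without NT3 array 1, with differences of 0.62 to 1.17 for Ngfr and 1.36 to 2.29 for Ret over the left-out fits. The ganglion list, whose level is given above, was high and low in the same arrays, and its part in the 2 results was not tested. Neither gene was called with that list as a covariate. The list itself was higher in NT3 on average, so that fit cannot tell its part from the treatment. Gfra1, the ligand-binding partner of Ret, was steadier at 9.04, 8.95 and 8.86 in NT3 and 8.18, 8.22 and 7.89 in LC (0.85, SE 0.14, adjusted p = 1e-04). The receptor gene Igf1r fell by 0.45 (adjusted p = 0.00175), a call lost on the 6 arrays alone with the replicate block (adjusted p = 0.0643). The receptor genes Fgfr1 (-0.23), Sort1 (0.31) and Cntfr (-0.27) were not called.

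Next, the day 60 difference was set against the same difference at the lesion site on other days. Between NT3 and LC, 960 genes were higher and 1182 lower on day 3, 292 and 337 on day 10, 1708 and 2331 on day 20, 1187 and 992 on day 30, 1255 and 1844 on day 60, and 1484 and 1989 on day 90. Against day 90, the day 60 difference itself differed in 784 genes (6.51%), 374 (3.11%) with a more positive and 410 (3.41%) with a more negative value on day 60. This count rests on single arrays: with 1 left out it ran from 79 (without day 90 LC array 1) to 1308 (without day 90 LC array 3), with 149 without NT3 array 3 and 193 without LC array 2 of day 60, so the members given next are those of the full set only. The list counts are to be read against the 6.51% of all genes. Of 16 antigen presentation genes, 5 were more negative and 1 more positive on day 60. More negative were also 5 of 15 microglia and macrophage genes, 3 of 11 complement genes and 3 of 17 hypoxia and glycolysis genes. RT1-DMa, which fell by 1.13 on day 60, differed by 0.01 on day 90 (adjusted p of the change = 0.00378), and RT1-DMb by -0.04 (adjusted p = 0.00307). C1qc, which fell by 0.76 on day 60, differed by 0.36 on day 90 (adjusted p = 0.0147). Arg1 passed from -2.88 to -1.42 (adjusted p = 0.0383), and over the earlier days its difference was 0.34 on day 3, -2.58 on day 10, -5.31 on day 20 and -4.43 on day 30. No member of the B cell, T cell, muscle or ganglion lists changed between day 60 and day 90 by this test. Of the 20 neuron genes tested, 3 had a more negative value on day 60.

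**Figure D4:**
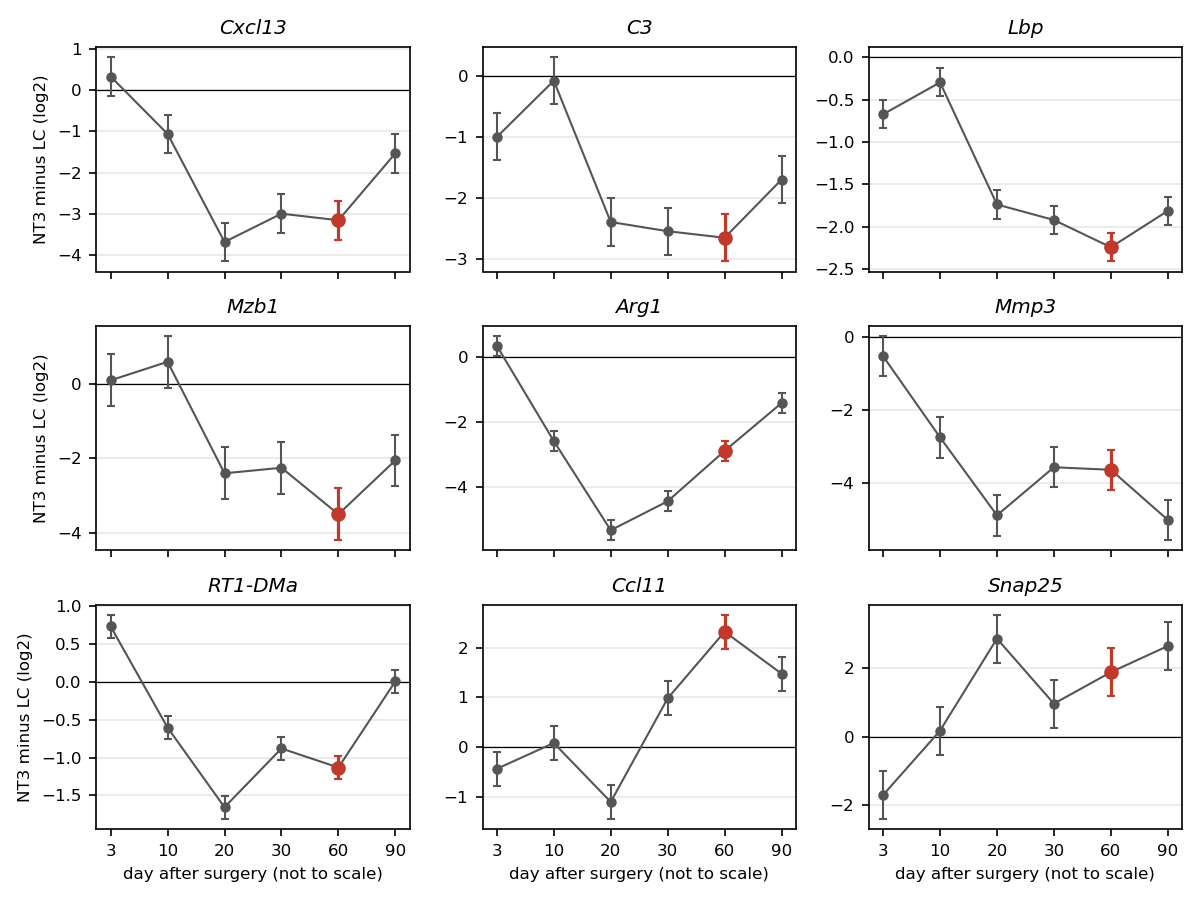
Log2 difference NT3 minus LC at the lesion site (points, with SE bars) on days 3 to 90 for 9 genes, with day 60 in red; days are evenly spaced and not to scale. Arg1 was lowest on day 20 and moved back towards 0 by day 90, RT1-DMa passed from -1.13 on day 60 to 0.01 on day 90, and Ccl11 lay above 0 on day 60.

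One gene of the RT1 complex differed widely between days. RT1-CE10, a class I gene of that complex, which varies between rat strains, read 7.76 to 7.89 in NT3 and 7.73 to 8.14 in LC on day 60 (-0.14, adjusted p = 0.824), with overlapping groups. On day 90 it read 7.54 to 7.73 in NT3 and 11.06 to 11.78 in LC, and on day 30 it read 11.1 to 12.4 in both. Its part in the differences between days was not tested. Against day 30, 148 genes (1.23%) differed, 44 (0.365%) with a more positive and 104 (0.864%) with a more negative value on day 60. With 1 array left out this count ran from 12 (without day 30 LC array 1) to 172, and scaling to the 75th percentile gave 70 more positive and 41 more negative, so the split has no settled direction. Igf1 was among them, at -0.55 on day 60 and 0.35 on day 30 (adjusted p = 0.00527), as was Ubd (adjusted p = 0.0468). No member of the antigen presentation, complement or microglia lists differed between these days.

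Finally, the lesion site was compared with the rostral segment, the cord above the lesion, of the same treatments on day 60. The NT3 minus LC difference departed from its rostral counterpart in 2194 genes (18.2%), 1167 (9.69%) in the positive and 1027 (8.53%) in the negative direction. All 10 of the genes that fell most at the lesion without overlap between the groups were among them, with rostral differences between -1.11 and 0.01. So were 9 of the 10 that rose most without such overlap, with rostral differences between -0.16 and 0.20. The exception was Myh2 (adjusted p = 0.0673). All of these genes were chosen for a large difference in the same lesion-site arrays that enter this test. Their passing was thus favoured by the choice and is not separate evidence for a difference between segments. C5ar1, Cd14 and Ccl2 had differences of -1.22, -1.34 and -1.70 at the lesion and of 0.25, 0.42 and 0.09 rostrally (adjusted p = 0.000363, 4.97e-06 and 0.000369). RT1-DMb differed by 0.21 rostrally (adjusted p = 2.59e-07). C5ar1, Cd14, Ccl2 and RT1-DMb were likewise named for large called differences in the same lesion-site arrays, so the same limit holds for them. The list counts are to be read against the 18.2% of all genes that passed this test. More negative at the lesion were 9 of 16 antigen presentation, 7 of 11 complement, 9 of 28 cytokine and chemokine, and 7 of 15 microglia and macrophage genes. So were 6 of 16 T cell, 5 of 7 B cell, 10 of 45 matrix, and 7 of 17 hypoxia and glycolysis genes. More positive were 12 of 20 neuron, 5 of 23 muscle and 4 of 9 ganglion genes. The matrix and muscle counts are near the share of all genes. Cd74 (adjusted p = 0.108) and RT1-Ba (adjusted p = 0.0694) did not pass, although their rostral differences were -0.16 and 0.03.

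**Figure D5:**
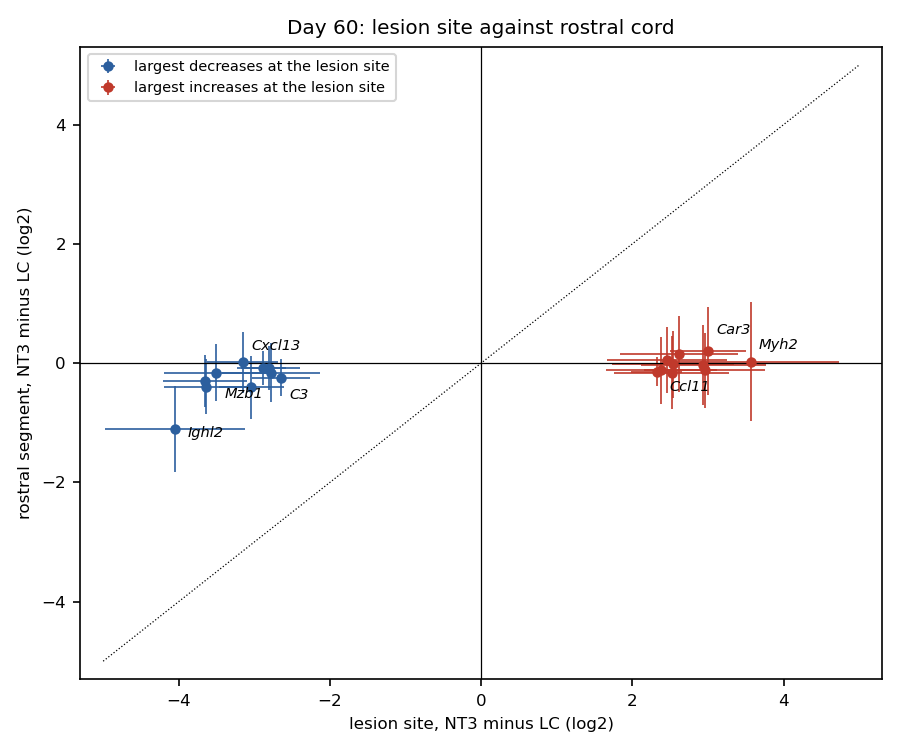
Log2 difference NT3 minus LC on day 60 at the lesion site (horizontal) and in the rostral segment (vertical), with SE bars, for the 20 leading genes; the dotted line marks equal differences. Lesion-site differences run from -4.05 to 3.56 while rostral differences stay between -1.11 and 0.20. The genes were chosen for large lesion-site differences, so the wider horizontal range follows in part from the choice.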

How the data were processed

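Total RNA was hybridised to 1-colour Affymetrix rat arrays. The deposited values are log2 intensities made by the authors with RMA, which corrects background, quantile-normalizes across arrays and summarises probes; the submitters' processing notes name GCOS, RMA and Affymetrix Expression Console, without stated versions. Because quantile normalization was applied already, array medians are alike and a general shift cannot be seen. Of 31099 probe sets, 57 controls were dropped, 20832 had 1 gene symbol, and each of 14218 genes was taken from its brightest probe set (4292 of the tested genes had several). Genes above the 40th percentile of an array in at least 3 arrays of the series were kept, 12041 in all. Depth does not apply to arrays; precision is limited by 3 arrays a group.

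Group means were fitted with limma (3.58.1, R 4.3.3) to 42 arrays, 39 of the lesion site and 3 of uninjured cord, with 31.5 residual and prior degrees of freedom together, and, for the rostral comparison, to 104 arrays. P-values were adjusted with the Benjamini-Hochberg method across the 12041 genes, and 0.05 was the threshold. Replicate numbers are shared between groups in the titles. Same-numbered NT3 and LC lesion-site arrays of day 60 deviated from their group means together (r = 0.217, 0.277 and 0.196), different numbers at -0.292 to 0.103. This did not hold throughout: r was -0.093, 0.297 and -0.16 at the lesion site on day 90 and -0.27, 0.156 and -0.22 on day 30. In the rostral segment on day 60 it was 0.206, -0.279 and -0.001. Whether the numbers pair samples is not known, and no batch is stated. The main fit held no replicate block, which was tried as an alternative. The script was tested on simulated data.

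The text names the 10 called, non-overlapping genes with the largest difference each way, up to 3 called members of each list (6 where 10 or more were called), all neurotrophin list members, 12 markers and the 5 genes with the smallest p in each test of a difference; any other gene named was chosen after its values were seen. The members and lists were chosen with earlier results of these data known. Alternatives varied the filter, scaling, probe set rule, arrays in the fit, replicate block, array weights and covariates; those on marker and beta-actin covariates, on arrays standing apart and on single probe sets were added after seeing the data. Promoter sequences are RefSeq's for GRCr8.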

Additional observations from a re-analysis of the deposited data

Results flagged for a closer look

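In 784 genes the difference between NT3 and LC at the lesion site on day 60 departed from that on day 90 by limma's test of the difference of differences. The 5 with the smallest p included genes with opposite signs on the days. Pa2g4, a growth regulator, passed from -0.82 on day 60 to 0.72 on day 90, a change of -1.539, though a second probe set of it read 0.05 on day 60. Gsk3b, a signalling kinase, was at -0.49 and 0.79, a change of -1.278. The mitochondrial carrier gene Sfxn5 was at -0.18 and 2.46, a change of -2.634. Chrdl1, a bone morphogenetic protein antagonist, was at 1.17 and -1.15, a change of 2.319. The thioesterase gene Acot3 was at 0.02 and -1.21, a change of 1.225.

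Against day 30 the difference departed in 148 genes. Ddah1, which breaks down methylated arginines, was at -0.19 on day 60 and -1.54 on day 30, a change of 1.348. The interleukin-11 receptor gene Il11ra1 was at 0.41 and 1.27, a change of -0.86. Gpr15lg was at -1.14 and -3.94, a change of 2.792. Igf1 was at -0.55 and 0.35, a change of -0.901. The endothelial transcription factor gene Sox18 was at 0.09 and 1.02, a change of -0.937.

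Between lesion site and rostral segment the difference departed in 2194 genes on day 60. The transcription factor gene Dach1 was at 1.49 at the lesion and -0.43 rostrally, a gap of 1.923. Mest was at 1.71 and -0.37, a gap of 2.083. Armcx4 was at 0.64 and -0.37, a gap of 1.015. Tmed5, of the secretory pathway, was at -0.93 and 1.33, a gap of -2.251. Pkia, an inhibitor of protein kinase A, was at 1.37 and -0.27, a gap of 1.634; other Pkia probe sets read 0.25 and 1.27 at the lesion.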

How the results depend on the processing

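The 3099 genes called between NT3 and LC on day 60 became 4944 with array weights, 942 with the ganglion list as a covariate, 1408 with the ganglion and muscle lists, and 1359 to 2477 with 1 array left out; all other settings gave 2816 to 3955. With the replicate block the count was 3243 (2932 on the 6 arrays alone). Whether called or not, 162 named genes kept their status with the block, while 1 call was lost and 2 were gained. On the 6 arrays alone 145 named genes kept their status, 17 calls were lost and 3 were gained. The share of higher genes rose from 40.5% to 46.2% with scaling to the 75th percentile. Against day 90 the 784 genes became 1802 with all arrays in 1 fit, 1582 with the groups compared only, 2355 with array weights, 1192 without the 3 arrays that stand apart, and 79 to 1308 with 1 array left out; the replicate block gave 728. Against day 30 the 148 genes became 717 with all arrays in 1 fit, 52 with the groups compared only, 1470 with array weights, 280 with the replicate block, 623 without the 3 arrays that stand apart, 257, 98 and 413 with the muscle, ganglion and beta-actin covariates, and 12 to 172 with 1 array left out. Scaling to the 75th percentile turned its split from 44 higher and 104 lower (29.7% higher) to 70 and 41 (63.1%), and quantile scaling to 49 and 54 (47.6%). Against the rostral segment the 2194 genes became 4621 with array weights, 1271 with the ganglion covariate, 1328 with both lists, and 1210 to 2316 with 1 array left out; the replicate block gave 2319, and the mean of probe sets moved the share of positive differences from 53.2% to 41.6%. The sign turned for Klf6 with the mean of probe sets (0.036), for Prph (-0.04) and Calca (-0.17) with the ganglion covariate, and for Calca (-0.45), Myl11 (-0.19), Myl1 (-0.30), Acta1 (-0.14) and Tnnc2 (-0.13) with both lists; Klf6's other probe sets read 0.24 and 0.25. Counting each named probe set singly, 3730 were called, 1518 higher and 2212 lower. The cause of these shifts was not tested. Signal near background limits Ntf3 and the other genes under the filter.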

Other observations

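Other lists were counted on day 60, to be read against the 25.7% of all genes called. Of 17 hypoxia and glycolysis genes 8 fell and 1 rose (median -0.36), and 3 of the decreases were left without LC array 3. Egln3, an oxygen-sensing prolyl hydroxylase, read 6.86, 6.64 and 6.75 in NT3 and 7.90, 7.77 and 8.32 in LC (-1.25, SE 0.24, adjusted p = 0.000453). The haem-degrading enzyme gene Hmox1 (-0.72) and the carbonic anhydrase gene Car9 (-0.80) fell, and Bnip3 was the member that rose (0.38). The call of Car9 (-0.87 to -0.69) was lost without any 1 array, that of Hmox1 (-0.94 to -0.52) without LC array 3, and that of Bnip3 (0.35 to 0.40) without NT3 array 2, NT3 array 3 or LC array 3. Of 23 cell cycle genes 9 fell and none rose. The mitotic kinase gene Cdk1 read 6.83, 7.25 and 6.92 in NT3 and 7.61, 7.67 and 7.83 in LC (-0.71, SE 0.12, adjusted p = 0.000136). The cell cycle decreases numbered 4 without NT3 array 1, 6 without LC array 2 and 5 without LC array 3 or NT3 array 3.

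Among 11 Hox genes, which keep the positional identity of cord segments, 4 fell and 1 rose. Hoxa10 read 7.50, 7.51 and 7.64 in NT3 and 5.67, 6.46 and 6.09 in LC (1.48, SE 0.33, adjusted p = 0.00197), while Hoxc8 (-0.91) and Hoxa7 (-0.73) fell. Hoxa10 in uninjured cord had a mean of 9.68, above every lesion array of day 60. Of 16 immediate early genes 3 fell, among them Junb (-0.76), and Egr1 rose (0.70). Hoxa7 (-0.82 to -0.66) lost its call without NT3 array 2, NT3 array 3, LC array 1 or LC array 3, and Egr1 (0.58 to 0.78) without NT3 array 3 or LC array 1. Of 18 cholesterol synthesis genes 3 rose and 1 fell, and none of 8 neutrophil genes was called; the immediate early and cholesterol counts are near the share of all genes called.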
